A study of Mus musculus with 36 samples.

Results

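The 10 genes described here encode subunits of protein phosphatase 2A (PP2A), among them Ppp2r2d, a hairpin target of the study. They were taken by name: the catalytic subunits Ppp2ca and Ppp2cb, the scaffolds Ppp2r1a and Ppp2r1b, the regulatory subunits Ppp2r2a, Ppp2r2b, Ppp2r2c and Ppp2r2d of the B family, Ppp2r3a and Ppp2r5c. All 10 were found among the 18193 genes measured. They are covered by 32 probe sets, short groups of probes that each read 1 stretch of a transcript. Each gene is given by its brightest probe set, and for Ppp2r2d all 3 probe sets are given.

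Mouse CD8 T cells derived from OT-I mice, whose T cell receptor recognises an ovalbumin peptide, received a short hairpin RNA (shRNA), which lowers a target transcript, by transduction and then entered mice that carried B16 melanoma. There were 6 transductions: the control hairpin, against the bacterial gene LacZ, and hairpins against Alk, Arhgap5, Egr2, Ppp2r2d and Ptpn2. Each has 3 arrays labelled spleen and 3 labelled tumor, which gives 12 groups and 36 single-colour arrays of total RNA. The study asked about genes that set how many T cells are found in tumors relative to spleens. All groups share the OT-I origin, the transduction and the tumor-bearing host. The sources used here do not give the hairpin's sequence, the number of hairpins per gene, the strain or age of the hosts, or whether separate animals gave the 3 arrays of a group. Each p therefore measures the spread between arrays, which may be technical.

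PP2A is a serine/threonine phosphatase built from a catalytic subunit, a scaffold and 1 of many regulatory subunits. The regulatory subunit selects substrates and location, and the catalytic and scaffold subunits are shared by most forms of the enzyme. In T cells PP2A is known to counter kinase signalling downstream of the antigen receptor and of cytokine receptors. Ppp2r2a to Ppp2r2d encode the B55 subunits, Ppp2r5c encodes a B56 subunit, and Ppp2r3a encodes a calcium-binding subunit of another family.

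The tissue labels did not go with the marker genes. The median of 10 melanocyte genes lay between 3.16 and 5.27 in the 18 arrays labelled spleen and between -2.07 and -0.70 in the 18 labelled tumor, on the deposited log2 scale. The median of 12 myeloid genes lay at 2.23 to 5.06 and -2.70 to -0.92, and that of 15 cell cycle genes at 4.50 to 5.73 and 0.14 to 2.83, in the same order. T cell genes such as Cd3e and Cd8a were high under both labels, with medians of 5.89 to 6.91 and 4.40 to 7.22. Groups are therefore named by their label, and differences in which the 2 labels are set against each other carry this doubt in their direction. In such bulk RNA, fewer cells of a type and less RNA per cell cannot be told apart. Array medians lay between -0.48 and -0.23. Of the single arrays, Ptpn2 array 1 labelled tumor stood apart: its 3′ to 5′ difference of the Gapdh control probes was 2.94, against 0.25 to 1.39 in the labelled spleen arrays.

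The promoters of 7 of the 10 genes were matched in RefSeq (assembly GRCm38.p6). The windows shown hold the 250 bases before the first transcription start, 5′ to 3′ on the gene's strand, for the target, for a catalytic subunit and both scaffolds, and for Ppp2r3a, the subunit with the widest range of levels. Capitals mark a cAMP response element, TGACGTCA, a palindrome that CREB-family factors are known to bind.
Ppp2r2d: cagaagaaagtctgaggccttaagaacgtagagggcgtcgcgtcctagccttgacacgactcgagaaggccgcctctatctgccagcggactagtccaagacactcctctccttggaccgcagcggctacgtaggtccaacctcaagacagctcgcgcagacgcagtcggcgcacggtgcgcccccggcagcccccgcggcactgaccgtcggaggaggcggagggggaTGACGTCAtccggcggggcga
Ppp2ca: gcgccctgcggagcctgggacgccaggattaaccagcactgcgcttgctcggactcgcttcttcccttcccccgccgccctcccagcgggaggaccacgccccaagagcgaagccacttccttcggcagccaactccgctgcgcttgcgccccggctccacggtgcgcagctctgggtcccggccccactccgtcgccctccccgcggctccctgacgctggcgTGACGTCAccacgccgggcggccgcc
Ppp2r1a: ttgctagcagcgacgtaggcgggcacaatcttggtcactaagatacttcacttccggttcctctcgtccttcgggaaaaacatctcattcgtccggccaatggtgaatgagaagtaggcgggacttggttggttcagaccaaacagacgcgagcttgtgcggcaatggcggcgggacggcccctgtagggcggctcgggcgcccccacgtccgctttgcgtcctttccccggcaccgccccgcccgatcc
Ppp2r1b: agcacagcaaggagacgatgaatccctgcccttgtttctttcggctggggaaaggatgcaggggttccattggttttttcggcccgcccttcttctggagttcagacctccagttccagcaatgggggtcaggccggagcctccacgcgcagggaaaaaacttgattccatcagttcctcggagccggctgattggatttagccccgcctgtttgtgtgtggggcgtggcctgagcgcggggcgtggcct
Ppp2r3a: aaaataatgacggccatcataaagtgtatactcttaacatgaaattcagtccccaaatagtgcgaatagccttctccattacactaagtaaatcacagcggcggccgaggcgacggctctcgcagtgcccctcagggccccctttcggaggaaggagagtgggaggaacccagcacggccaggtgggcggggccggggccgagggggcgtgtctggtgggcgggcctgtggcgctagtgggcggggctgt
The windows are chr7:138846109-138846358 (plus strand), chr11:52098574-52098823 (plus strand), chr17:20945204-20945453 (plus strand), chr9:50856674-50856923 (plus strand) and chr9:101251833-101252082 (minus strand), in that order. The element lies at -21 to -14 from the start in Ppp2r2d and at -26 to -19 in Ppp2ca. It is in 1.55% of all 32851 windows of this length in the table. The motif was chosen after the sequences had been seen, so its presence in both genes is a description. CCAAT, searched on both strands like the others, is in the Ppp2r1a and Ppp2r1b windows and in 33.8% of all windows. The GC box GGGCGG is in the Ppp2ca, Ppp2r1a, Ppp2r1b and Ppp2r3a windows and in 32.7% of all.

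Among the arrays labelled spleen, Ppp2r2d was lowest in the cells that received its own hairpin. On the brightest probe set, 1420033_s_at, these 3 arrays read 3.31, 3.67 and 3.88. The other 15 labelled spleen arrays read from 4.31 to 5.51 with a median of 4.86, so that no array overlapped. The LacZ arrays read 5.51, 5.16 and 4.31. The difference from LacZ was -1.37 ± 0.42 (SE, n = 3 and 3), or 38.6% of the LacZ level (limma adjusted p = 0.0286 over all genes). The median of all genes differed by -0.24 in this comparison, and with quantile normalization, which removes that shift, Ppp2r2d differed by -1.45 (adjusted p = 0.00125). LacZ array 3 was the control array nearest to the hairpin group, and LacZ arrays 1 and 2 were the highest of the 18 labelled spleen arrays.

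The other 2 probe sets of Ppp2r2d showed the same order. On 1420034_at the hairpin arrays read 2.86, 3.14 and 3.08 and the 15 others 3.58 to 4.66, again with no overlap. On 1424527_at they read 1.64, 2.01 and 2.48, and 1 of the 15 others, LacZ array 3 at 2.37, lay within their range. The differences from LacZ were -1.17 ± 0.30 (limma adjusted p = 0.0117 over all 45037 probe sets) and -0.96 ± 0.32 (adjusted p = 0.044). Over the same probe sets the brightest had an adjusted p of 0.0316, and all 3 Ppp2r2d sets thus passed, where 12.3% of probe sets did.

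Since the LacZ arrays labelled spleen had a larger Gapdh 3′ to 5′ difference (0.83 to 1.39) than the Ppp2r2d arrays (0.48 to 0.63), the target was also set against the 4 other hairpins, whose arrays lay between 0.25 and 0.83. With the Gapdh difference as a covariate, Ppp2r2d differed from LacZ by -1.85 (limma adjusted p = 0.000778) and from the 4 other hairpins by -1.12 (adjusted p = 0.00757). Against the mean of the Egr2, Ptpn2, Arhgap5 and Alk groups, Ppp2r2d differed by -1.15 ± 0.33, to 45.1% (limma adjusted p = 0.0404, n = 3 and 12). The other sets differed by -0.95 ± 0.24 (adjusted p = 0.0207) and -0.94 ± 0.25 (adjusted p = 0.0327), while the brightest had an adjusted p of 0.0576 over all probe sets. Thus 2 of the 3 sets passed over all probe sets, where 2.76% did. The sign held without any array, but the calls did not. Against LacZ the adjusted p rose to 0.0939, 0.0854, 0.0861, 0.0887 and 0.0561 (differences of -1.12, -1.29, -1.22, -1.40 and -1.50) without LacZ array 1, LacZ array 2 or Ppp2r2d array 1, 2 or 3. Against the 4 hairpins it rose to 0.286, 0.17 and 0.0969 (differences of -0.99, -1.17 and -1.28) without Ppp2r2d array 1, 2 or 3. It lay between 0.0514 and 0.0598 without Egr2 array 1 or 2, Ptpn2 array 1 or 3, Arhgap5 array 2 or 3, or Alk array 1 or 3.

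Under the label tumor the hairpin arrays could not be set apart from the others. They read 3.83, 4.07 and 4.11 on the brightest probe set, and the other 15 read 2.00 to 5.22 with a median of 4.37. Of these 15, 3 lay at or below the highest hairpin array. The difference from LacZ, whose arrays read 4.12, 3.86 and 4.40, was -0.12 with a 95% interval from -0.98 to 0.73 (limma adjusted p = 0.902). Against the 4 other hairpins it was -0.25, from -0.92 to 0.43 (adjusted p = 0.567). The other probe sets gave -0.14 and -0.11 against LacZ and -0.31 and -0.33 against the 4 hairpins. None of the 3 Ppp2r2d sets passed either comparison over all probe sets, where 0.673% and 33.3% did, and none had an unadjusted p under 0.05 there.

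The difference between the labels was tested itself. The Ppp2r2d difference from LacZ was larger by 1.25 ± 0.59 in labelled tumor than in labelled spleen arrays, that is, closer to 0 (unadjusted p = 0.0436, limma adjusted p = 0.556). The same term against the 4 other hairpins was 0.90 ± 0.47 (adjusted p = 0.226). With arrays weighted by a quality that limma estimated from the same values, the terms were 1.29 (adjusted p = 0.00593) and 0.88 (adjusted p = 0.00333), so that the call rested on the weighting. In some groups 1 array held most of the weight. Alk array 2 labelled tumor had 58.0 against 0.63 and 0.48, and LacZ array 3 labelled tumor 7.00 against 0.49 and 0.20. LacZ array 1 labelled spleen had 1.19 against 0.13 and 0.25. A smaller reduction in labelled tumor arrays was thus not shown in the unweighted fit.

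**Figure D1:**
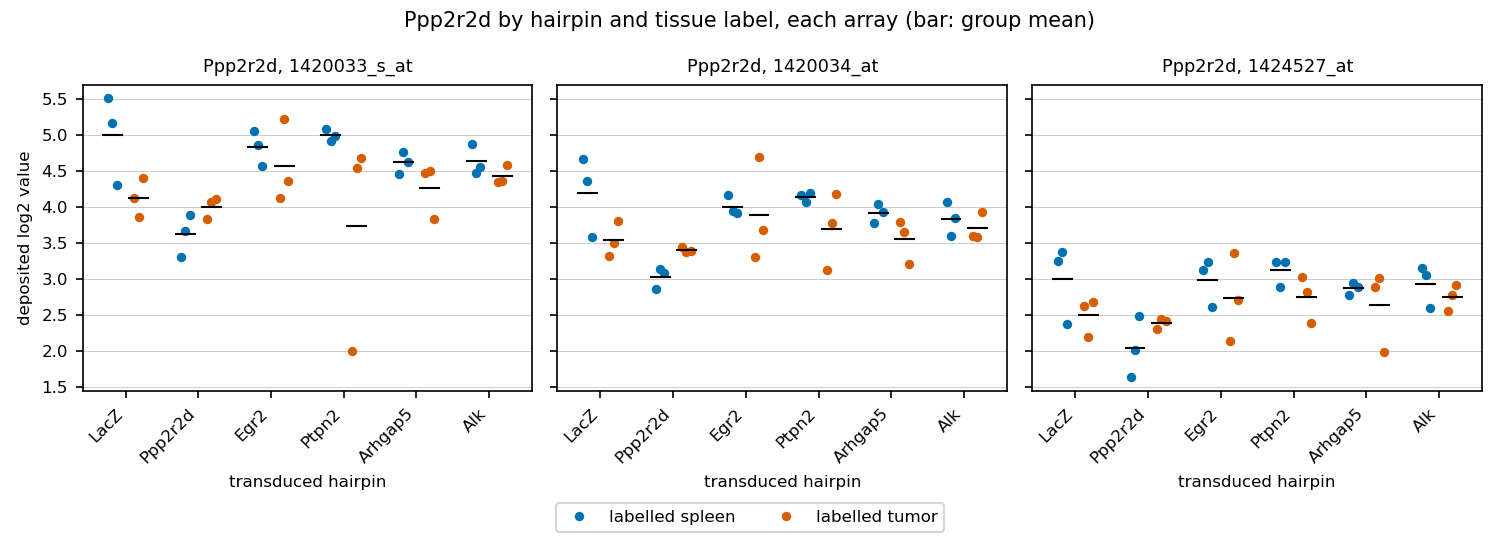
Deposited log2 values of the 3 Ppp2r2d probe sets (1 panel each, common vertical axis) in each of the 36 arrays, by transduced hairpin, blue for labelled spleen and orange for labelled tumor; bars are group means of 3 arrays. The Ppp2r2d labelled spleen group has the lowest mean in each panel, and the lone low point of the first panel is Ptpn2 array 1 labelled tumor at 2.00.

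Ordered by group mean on the brightest probe set, Ppp2r2d ranged from 3.62 ± 0.29 (SD, n = 3 in each group) in its own labelled spleen group to 5.00 ± 0.08 in the Ptpn2 labelled spleen group. Between them came Ptpn2 labelled tumor (3.74 ± 1.51), Ppp2r2d labelled tumor (4.00 ± 0.15), LacZ labelled tumor (4.13 ± 0.27), Arhgap5 labelled tumor (4.27 ± 0.38), Alk labelled tumor (4.43 ± 0.13) and Egr2 labelled tumor (4.57 ± 0.58). The labelled spleen groups of Arhgap5 (4.62 ± 0.15), Alk (4.64 ± 0.21), Egr2 (4.83 ± 0.24) and LacZ (4.99 ± 0.62) followed. The ranges of neighbours in this order overlapped, which describes the arrays and is no test of adjacent groups. The second place of Ptpn2 labelled tumor came from array 1, at 2.00 against 4.54 and 4.67. On 1420034_at and 1424527_at that array read 3.12 and 3.03, and there the second lowest group was Ppp2r2d labelled tumor. Over the 36 arrays the brightest set correlated with the other sets at r = 0.86 and 0.60, and these with each other at 0.77.

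The genes whose levels ran most like Ppp2r2d were sought among 8795 genes with a mean above the median. Over 36 arrays these were Nfyc (r = 0.92), a subunit of a CCAAT-binding factor, Ergic2 (0.89), Ubxn2a (0.87), Ss18 (0.87) and Ctbp1 (0.86), a transcriptional corepressor. Over the 12 group means they were Nnt (0.96), a mitochondrial transhydrogenase, Ndufa5 (0.92), a subunit of respiratory complex I, Ergic2 (0.91), Hipk3 (0.91) and Dnajc13 (0.91). Without Ptpn2 array 1 labelled tumor, Nnt came first (0.89) and Nfyc eighth (0.86), followed among the first 5 by Isca1, Adam10, Atxn3 and Wrnip1 after Nnt. The arrays share the tissue label and their centring, so these values describe likeness and carry no test.

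The catalytic and scaffold subunits, which most PP2A forms share, did not pass the test with the Ppp2r2d hairpin under either label. Ppp2ca, the main catalytic subunit, read 5.54, 5.63 and 5.56 in the labelled spleen arrays of that hairpin and 5.67, 5.98 and 5.10 in LacZ. The difference was -0.01 with a 95% interval from -0.51 to 0.49. Ppp2cb, its close paralogue, differed by 0.28 (-0.26 to 0.82), the scaffold Ppp2r1a by -0.40 (-0.95 to 0.15) and the scaffold Ppp2r1b by -0.10 (-0.65 to 0.46). Under the label tumor these 4 differed by 0.24, 0.51, 0.35 and 0.38, with adjusted p between 0.394 and 0.686. Each interval holds changes in both directions, so equality was not shown.

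The related B55 genes did not pass in labelled spleen arrays either. Ppp2r2a, the most highly read of them, differed from LacZ by -0.22 (95% interval -0.81 to 0.38), Ppp2r2c by -0.01 (-0.96 to 0.94) and Ppp2r2b by -0.99 (-2.02 to 0.03). The LacZ arrays of Ppp2r2b included array 2 at -1.20. On that array the lowest value of any probe set was -1.45, above the Ppp2r2b readings with the Ppp2r2d hairpin (-3.81 to -2.78). The order was thus fixed by the floor there. In all, 2 of the 10 subunits passed in this comparison, where 12.8% of all genes did: Ppp2r2d fell and Ppp2r3a rose. The same 2 passed against the 4 other hairpins, where 4.19% of genes did. The B56 subunit Ppp2r5c read 5.42, 5.37 and 5.40 with the Ppp2r2d hairpin, below the 3 LacZ arrays (5.86, 6.46 and 5.53). Its differences were -0.55 from LacZ and -0.61 from the 4 other hairpins, with limma adjusted p of 0.235 and 0.256, so neither passed. The order depended on the probe set. The mean with the Ppp2r2d hairpin was also below LacZ on 1427003_at (4.03 and 4.16). It was above LacZ on 1434205_at (3.84 and 3.73), 1434206_s_at (1.68 and 1.47) and 1455520_at (0.56 and 0.02). The same held on 1425726_x_at (-1.05 and -1.59) and 1425725_s_at (-1.48 and -1.91).

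Of the 10 subunits, Ppp2r3a had the largest difference between the Ppp2r2d hairpin and LacZ in labelled spleen arrays. In labelled spleen arrays the Ppp2r2d group read 0.62, 0.98 and 0.36 on the brightest set, 1437869_at. LacZ read -2.59, -0.98 and -1.08. Across the other 4 hairpins the 12 arrays ran from -2.06 to 0.23. The hairpin group was the highest of the 12 groups and overlapped none of those arrays. The differences were 2.20 ± 0.45 from LacZ (limma adjusted p = 0.00152) and 1.42 ± 0.35 from the 4 hairpins (adjusted p = 0.0136).

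In labelled tumor arrays the order of Ppp2r3a was the opposite. The Ppp2r2d group read -2.42, -3.06 and -2.97, below LacZ (-2.34, -1.78 and -2.16) and below the 12 arrays of the other hairpins (-1.91 to -0.36). It was the lowest of the 12 groups, at -2.82 ± 0.35 (SD, n = 3). On 5 of those 12 arrays (Egr2 array 2, Ptpn2 array 3 and Alk arrays 1, 2 and 3) the lowest value of any probe set was -1.45, -1.38, -1.88, -2.37 and -2.31, above all 3 Ppp2r2d readings of Ppp2r3a, so on these 5 the order was fixed by the floor of the array. The difference from LacZ of -0.72 did not pass (adjusted p = 0.485), while that from the 4 hairpins did, at -1.62 ± 0.35 (limma adjusted p = 0.00304). It was -1.53 (adjusted p = 0.00408) without the 3 arrays of the series with the highest floor, Egr2 array 2 and Ptpn2 array 3 labelled tumor and LacZ array 2 labelled spleen. Between the labels, the Ppp2r2d group differed by -3.47 (adjusted p = 2.93e-07).

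The change of the hairpin difference with the label was tested for Ppp2r3a too. It was -2.92 ± 0.63 against LacZ (limma adjusted p = 0.0172) and -3.05 ± 0.50 against the 4 other hairpins (adjusted p = 0.000426). Ppp2r3a was the sole member to pass these terms, where 0.786% and 3.08% of all genes passed. The level was low, at the 36.3rd percentile of gene means.

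**Figure D2:**
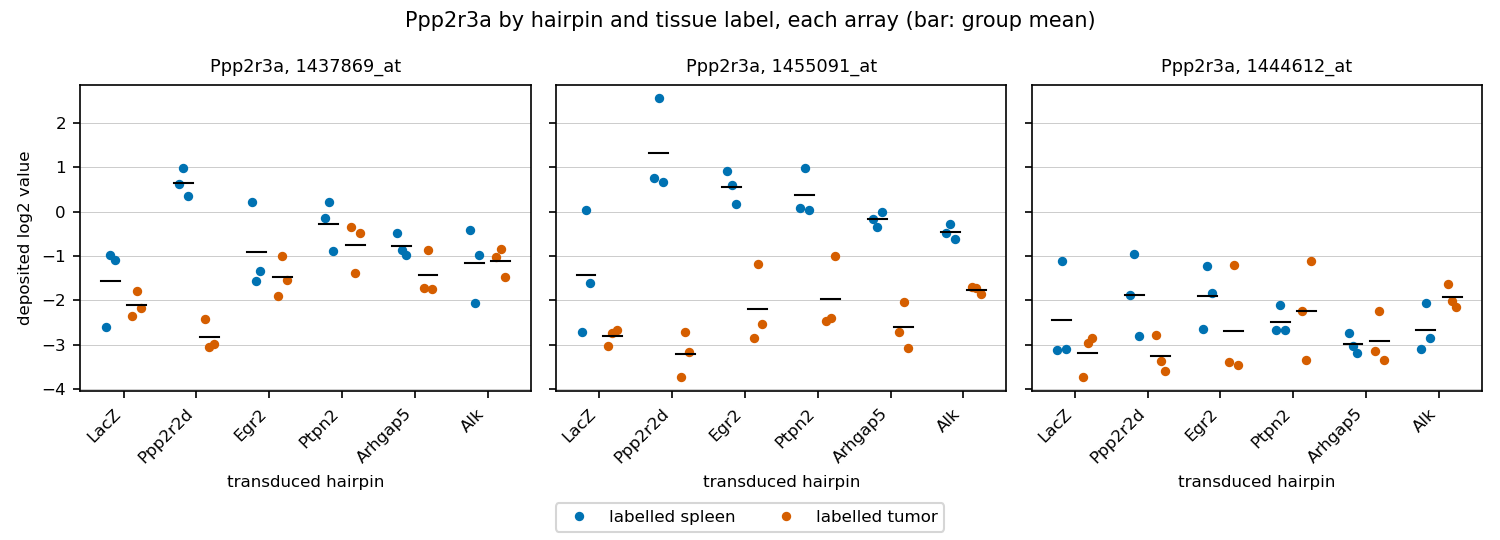
Deposited log2 values of the 3 Ppp2r3a probe sets (1 panel each, common vertical axis) in each of the 36 arrays, by transduced hairpin, blue for labelled spleen and orange for labelled tumor; bars are group means of 3 arrays. On 1437869_at the Ppp2r2d group is the highest labelled spleen group and the lowest labelled tumor group, while 1444612_at stays low in all groups.

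The other probe sets of Ppp2r3a set limits to this. On 1455091_at the Ppp2r2d labelled spleen arrays read 0.77, 2.55 and 0.67 and LacZ -2.71, 0.04 and -1.60, a difference of 2.75 ± 0.52 (limma adjusted p = 0.00093 over all probe sets). On 1444612_at, the dimmest, the difference was 0.56 ± 0.57 (adjusted p = 0.482). Against the 4 other hairpins in labelled spleen arrays, 1455091_at gave 1.26 (adjusted p = 0.113) and 1444612_at 0.62 (adjusted p = 0.885). That call was also lost for Ppp2r3a without Ppp2r2d array 1 (1.44, adjusted p = 0.0736) or array 2 (1.26, adjusted p = 0.158). The label term of Ppp2r3a against LacZ was -3.16 on 1455091_at (adjusted p = 0.044) and -0.63 on 1444612_at (adjusted p = 0.824), and -2.24 with the mean of all sets (adjusted p = 0.0899). Against the 4 hairpins it was -2.34 (adjusted p = 0.0274) and -1.43 (adjusted p = 0.163) on these sets. The term against LacZ lost its call without LacZ array 1 labelled spleen (-2.40, adjusted p = 0.0729), Ppp2r2d array 2 labelled spleen (-2.76, 0.0655) or Ppp2r2d array 2 or 3 labelled tumor (-2.80 and -2.84, 0.0597 and 0.055). With quantile normalization the labelled tumor difference from the 4 hairpins was -0.88 (adjusted p = 0.0746).

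Markers of other cells were counted in the same comparisons. In labelled spleen arrays, Ppp2r2d against LacZ, where 12.8% of all genes passed, 2 of 7 B cell genes were lower (array medians of -2.36 to -1.01 against -0.61 to -0.26). There 1 of 10 melanocyte genes was higher and 1 lower (3.65 to 4.19 against 3.16 to 4.04), and 1 of 10 T cell genes and 1 of 8 stroma and endothelium genes were lower. The medians of the 12 myeloid genes were 2.81 to 3.18 against 2.23 to 3.07, and 0 of them passed. Against the 4 other hairpins in labelled spleen arrays, where 4.19% passed, 2 of 12 myeloid genes and 1 of 7 B cell genes were lower, and 1 of 10 melanocyte genes was higher. In the labelled tumor comparison with the 4 hairpins 30.4% of all genes passed. There 5 of 8 stroma and endothelium genes, 3 of 12 myeloid genes and 2 of 7 B cell genes were lower, 4 of 15 cell cycle genes were higher, and 2 of 10 melanocyte genes were higher and 1 lower. Their part in the Ppp2r3a values was not tested.

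Ppp2r2c, a B55 gene best known from brain, was also lowest in the Ppp2r2d labelled tumor group. These arrays read -2.60, -2.30 and -2.70 on the brightest set, against -1.37, 0.38 and -1.10 in LacZ and -2.13 to 0.32 in the 12 arrays of the other hairpins. On 3 of these 12 (Egr2 array 2, Ptpn2 array 3 and Alk array 1) the lowest value of any probe set, -1.45, -1.38 and -1.88, lay above the Ppp2r2d readings, so that the order was fixed by the floor there. The differences were -1.84 ± 0.47 from LacZ (limma adjusted p = 0.0458) and -1.87 ± 0.37 from the 4 hairpins (adjusted p = 0.00141), the latter -1.71 (adjusted p = 0.00224) without the 3 arrays with the highest floor. Within the Ppp2r2d transduction, Ppp2r2c differed between the labels by -1.72 (adjusted p = 0.00585). That call rested on the same probe set: the other sets, 1443804_at and 1438054_x_at, gave -0.59 (adjusted p = 0.37) and -0.40 (adjusted p = 0.766), and the mean of all sets -0.90 (adjusted p = 0.111).

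Against LacZ, the call on Ppp2r2c rested on 1 probe set and on few arrays. Its other probe sets gave -0.44 (adjusted p = 0.683) and -0.31 (adjusted p = 0.835), and quantile normalization gave -1.64 (adjusted p = 0.0821). The call was lost without LacZ array 2 (-1.30, adjusted p = 0.561) or Ppp2r2d array 1, 2 or 3 (-1.80, -1.95 and -1.75, adjusted p = 0.151, 0.103 and 0.191). When set against the 4 other hairpins, the other Ppp2r2c sets gave -1.07 (adjusted p = 0.0161) and -1.18 (adjusted p = 0.0344), and no array left out ended that call. On these sets the Ppp2r2d arrays read -3.04 to -2.67 and -4.02 to -3.19. Both ranges lay below the lowest value of any probe set on Egr2 array 2, Ptpn2 array 3 and Alk arrays 1, 2 and 3. The second also lay below that of Ptpn2 array 1 and Arhgap5 array 2, so that the floor fixed the order there. Ppp2r2c was the 1 member of 10 called against LacZ in labelled tumor arrays, where 0.995% of genes passed. Against the 4 hairpins 3 of 10 were lower, where 30.4% of genes passed in either direction (1394 higher and 4135 lower): Ppp2r2c, Ppp2r3a and Ppp2r2b. Quantile normalization left 1776 genes past the threshold in that comparison.

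Ppp2r2b, the third member of that count, lay near the floor of the arrays, at the 6.45th percentile of gene means, and was the 1 member that failed a filter on low values (9 of 10 passed). Its labelled tumor arrays with the Ppp2r2d hairpin lay between -3.41 and -3.12, and the difference from the 4 hairpins was -1.13 (limma adjusted p = 0.0342). On 7 of the 12 arrays of those hairpins the lowest value of any probe set, at -2.97 to -1.38, lay above these Ppp2r2b readings. Without the 3 arrays with the highest floor the difference was -0.80 (adjusted p = 0.0213). Quantile normalization and cyclic loess took the Ppp2r2b difference to -0.11 and -0.03, and 4 single arrays ended the call when left out: Ppp2r2d array 1, 2 or 3 (-1.22, -1.07 and -1.10) and Alk array 1 (-1.11).

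**Figure D3:**
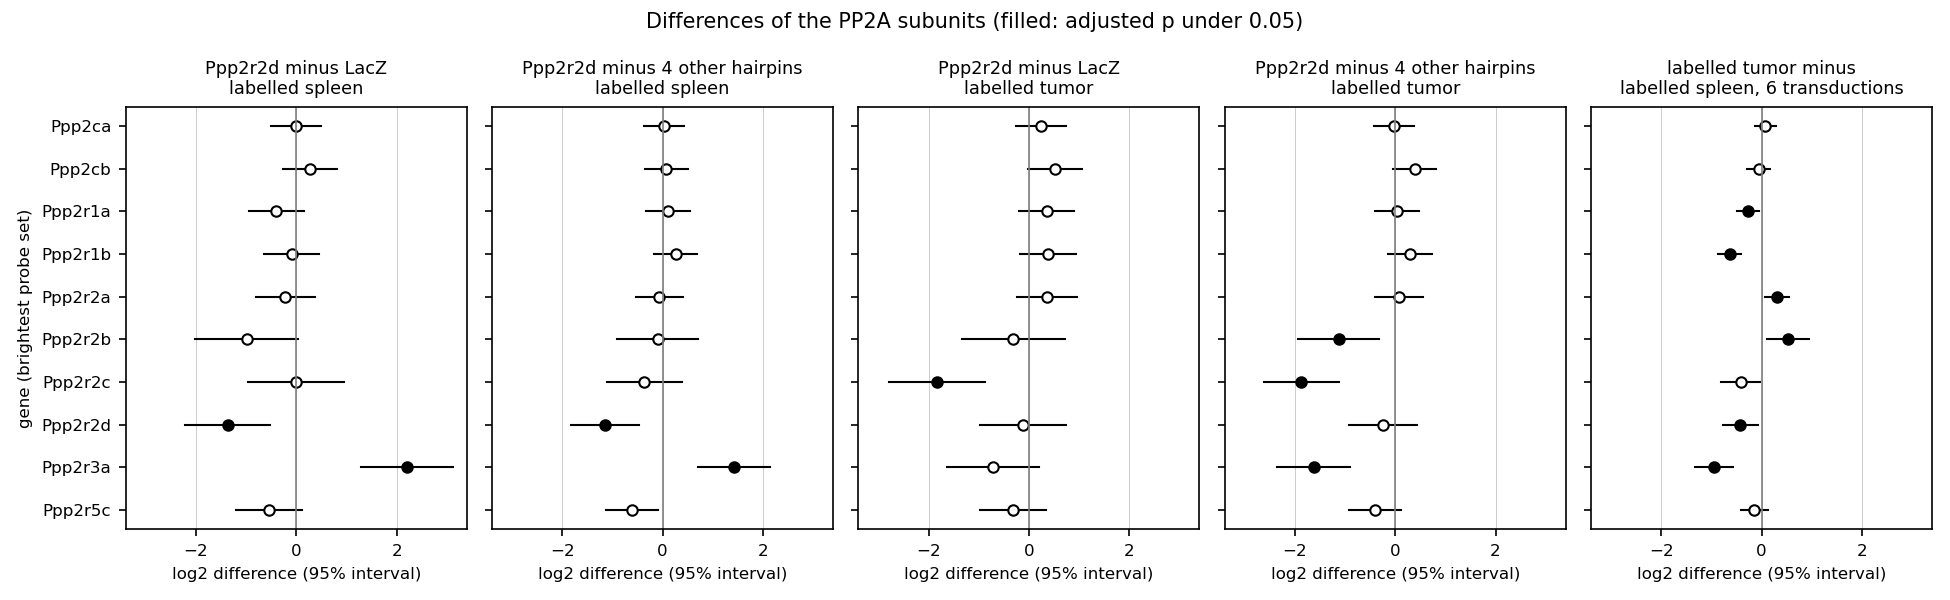
Log2 differences of the 10 subunits with 95% intervals in 5 comparisons (1 panel each, common horizontal axis); filled circles have an adjusted p under 0.05 over all genes. Ppp2r2d is called lower and Ppp2r3a higher in both labelled spleen panels, and the 4 core subunits at the top are called in none of the 4 hairpin panels.

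The other hairpins gave a background for these values. Over 8 comparisons of the Egr2, Ptpn2, Arhgap5 and Alk hairpins with LacZ, 80 pairs of a subunit and a comparison were tested and 0 passed by limma, while 9 had an unadjusted p under 0.05. The share of all genes that passed in labelled spleen arrays was 3.23% for Egr2, 9.58% for Ptpn2, 8.89% for Arhgap5 and 7.4% for Alk. In labelled tumor arrays it was 0.0275%, 0.764%, 0.368% and 0.0055%, in the same order. The differences ran from -1.16 to 1.39. The lowest adjusted p, 0.0647, was that of Ppp2r3a with the Ptpn2 hairpin in labelled spleen arrays. All of these comparisons share the LacZ arrays with those of the Ppp2r2d hairpin.

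Between the labels, the subunits moved in both directions. Over the mean of the 6 transductions, 6 of 10 passed, 2 higher and 4 lower in labelled tumor arrays, where 70.7% of all genes passed. Their median difference was -0.21, beside 0.13 over all genes. The share is near that of all genes.

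Both scaffolds were lower in labelled tumor arrays. Ppp2r1b read 4.21 to 5.56 in the 18 labelled spleen arrays, with a median of 4.83, and 3.51 to 4.85 in the 18 labelled tumor arrays, with a median of 4.09. The ranges overlap, and the difference was -0.64 ± 0.11 (limma adjusted p = 9.21e-06). It passed in all 10 other settings tried, between -0.71 and -0.26. Ppp2r1b has 1 probe set, so averaging probe sets left its values unchanged and no further set could be compared. Ppp2r1a differed by -0.27 (adjusted p = 0.0293), which fell to -0.08 and -0.09 and lost its call with quantile normalization and cyclic loess. The call was also lost without LacZ array 2, Egr2 array 1 or Ptpn2 array 2 labelled tumor (-0.24 each, adjusted p = 0.0517, 0.0508 and 0.0517).

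In LacZ cells the 2 scaffolds were the members that passed between the labels, where 25.2% of genes passed. Ppp2r1a read 7.03, 7.18 and 6.18 in labelled spleen and 5.88, 5.48 and 6.19 in labelled tumor arrays, a difference of -0.95 (limma adjusted p = 0.00837). Ppp2r1b differed there by -1.01 (adjusted p = 0.00518). Both calls were lost without LacZ array 2 labelled spleen (-0.76, adjusted p = 0.0692, and -0.75, adjusted p = 0.0637), and that of Ppp2r1a without LacZ array 2 labelled tumor (-0.77, adjusted p = 0.0557). Fitting only the 6 LacZ arrays left neither scaffold past the threshold (adjusted p = 0.244 for Ppp2r1a and 0.206 for Ppp2r1b). Ppp2r1a differed by -0.40 with cyclic loess (adjusted p = 0.0711) and by -0.60, -0.60 and -0.66 on 3 of its other probe sets, 1455929_x_at, 1415819_a_at and 1438174_x_at (adjusted p = 0.118, 0.292 and 0.189). With quantile normalization the Ppp2r1a and Ppp2r1b differences were -0.34 and -0.50, both past the threshold (adjusted p = 0.0465 and 0.00965).

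**Figure D4:**
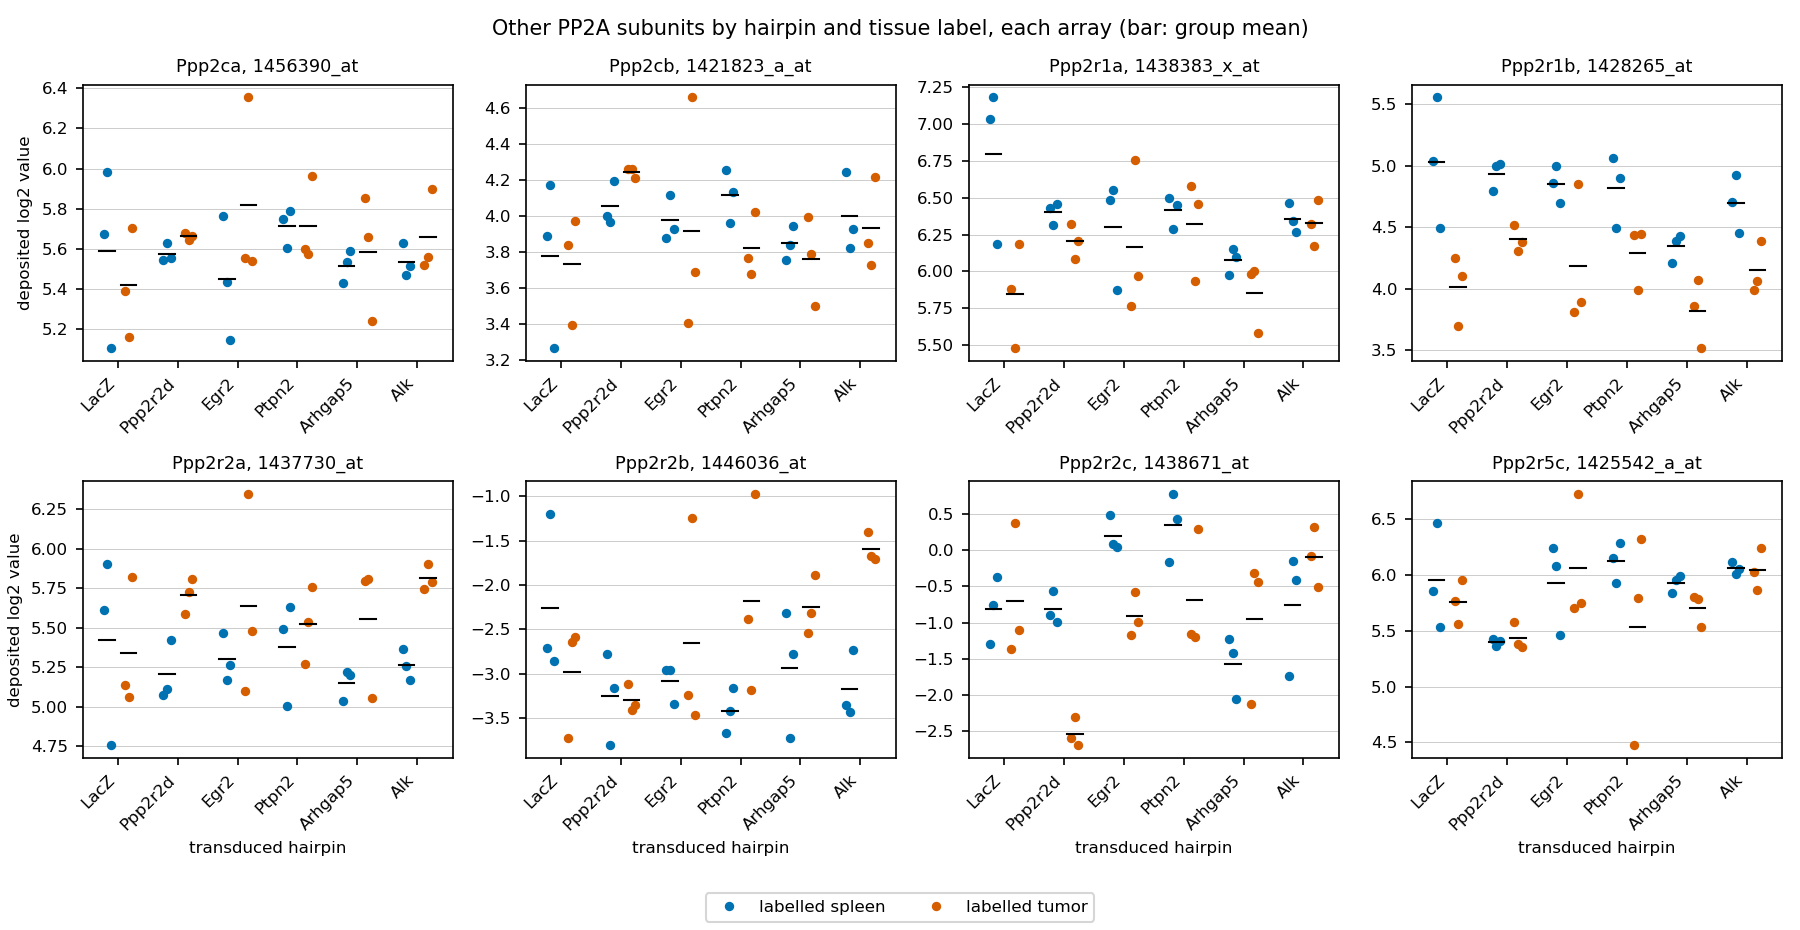
Deposited log2 values of 8 subunits (brightest probe set, 1 panel each with its own vertical axis) in each of the 36 arrays, by transduced hairpin, blue for labelled spleen and orange for labelled tumor; bars are group means of 3 arrays. Ppp2r1b lies lower in labelled tumor groups, and the Ppp2r2c panel shows the low Ppp2r2d labelled tumor group at -2.53.

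The catalytic subunit Ppp2ca gave opposite answers by probe set. The brightest, 1456390_at, differed between the labels by 0.08 ± 0.10 (limma adjusted p = 0.493 over all probe sets). The second, 1417367_at, was lower in labelled tumor arrays by -0.42 ± 0.11 (adjusted p = 0.00111). The third, 1439912_at, was higher by 2.14 ± 0.12 (adjusted p = 6.54e-16). Of all probe sets 71.3% passed in this comparison.

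On 1439912_at the 2 labels did not overlap. Its group means lay between 2.45 and 3.02 in labelled spleen and between 4.56 and 5.06 in labelled tumor groups. LacZ, for example, read 2.65, 3.10 and 2.29 against 4.38, 4.29 and 5.02, and the Ppp2r2d hairpin group 2.67, 2.43 and 2.25 against 5.23, 4.92 and 5.03. Within each transduction the labelled tumor mean was higher. The difference was smallest in Alk cells, at 1.72, and largest in Ppp2r2d cells, with means of 5.06 and 2.45. The deposited values do not say which stretch of the Ppp2ca transcript each set reads.

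**Figure D5:**
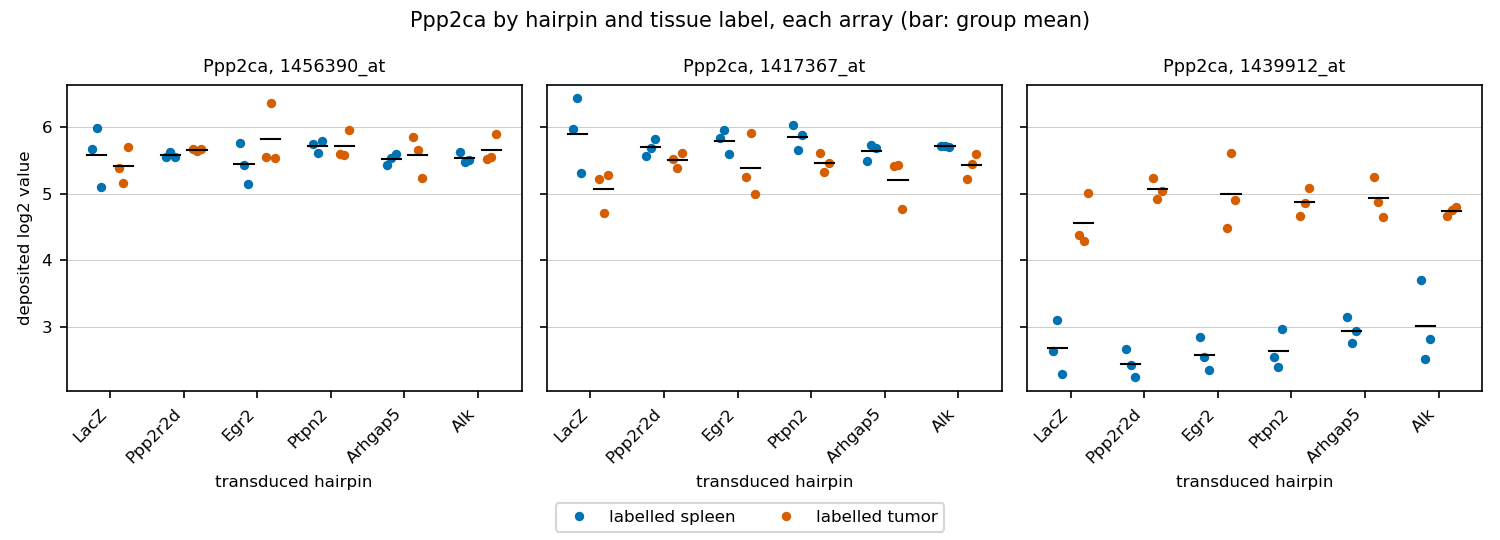
Deposited log2 values of the 3 Ppp2ca probe sets (1 panel each, common vertical axis) in each of the 36 arrays, by transduced hairpin, blue for labelled spleen and orange for labelled tumor; bars are group means of 3 arrays. The labels separate on 1439912_at, where labelled tumor arrays are higher, and overlap on 1456390_at.

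The remaining members were compared between the labels in the same way. Ppp2r2a was higher in labelled tumor arrays by 0.31 (limma adjusted p = 0.0235) and by 0.72 on 1453260_a_at, but differed by -0.07 on 1429715_at. Ppp2r3a was lower by -0.95 (adjusted p = 4.3e-05), by -2.45 on 1455091_at and by -0.31 on 1444612_at, where the call was lost. By transduction, the Ppp2r3a difference was -3.47 in Ppp2r2d cells, the only cells in which it passed. It was -0.55 in LacZ, -0.58 in Egr2, -0.47 in Ptpn2, -0.66 in Arhgap5 and 0.04 in Alk cells. On the brightest set the mean thus rested largely on the Ppp2r2d cells. On 1455091_at the labelled tumor mean was below the labelled spleen mean in each transduction. These means were -2.80 and -1.43 in LacZ, -3.21 and 1.33 in Ppp2r2d and -2.19 and 0.56 in Egr2 cells. They were -1.96 and 0.37 in Ptpn2, -2.60 and -0.17 in Arhgap5 and -1.76 and -0.46 in Alk cells. Ppp2r2d was lower by -0.43 (adjusted p = 0.0283), with -0.22 and -0.20 on its other sets, which did not pass. Quantile normalization and loess took the Ppp2r2d value to -0.04 and -0.11, and it was 0.07 with the Gapdh 3′ to 5′ difference as a covariate. That covariate fit includes Ptpn2 array 1 labelled tumor, whose part in it was not tested. Without LacZ array 1 labelled spleen the Ppp2r2d difference was -0.38 (adjusted p = 0.051).

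Ppp2r2b was higher by 0.53 (limma adjusted p = 0.0231), and Ppp2r2c (-0.41), Ppp2r5c (-0.14), Ppp2cb (-0.06) and Ppp2ca did not pass. The call on Ppp2r2b was kept in 6 of 10 other settings, and cyclic loess took its difference to -0.015. For Ppp2r5c the probe sets went both ways, from 0.66 on 1425725_s_at to -0.66 on 1455520_at. Ppp2cb was higher in labelled tumor arrays with quantile normalization, by 0.35 (adjusted p = 3.43e-06). The direction for Ppp2r2b, Ppp2cb and Ppp2r5c thus depends on the scaling or the probe set.

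By transduction, few subunits passed between the labels. In the Ppp2r2d cells 2 were lower (Ppp2r2c and Ppp2r3a), where 22.6% of genes passed. Of the 10 subunits 0 passed in Egr2 cells, where 26.4% of genes did, and 0 in Arhgap5 cells, where 32.3% did, with 2 and 0 at an unadjusted p under 0.05 in limma. In Ptpn2 cells Ppp2r2b was higher by 1.24 and Ppp2r2d lower by -1.26 (adjusted p = 0.0414 and 0.0158), where 49.2% passed. The Ppp2r2d value was -0.39 (adjusted p = 0.295) without Ptpn2 array 1 labelled tumor, and that of Ppp2r2b lost its call in 10 of 11 other settings and without Ptpn2 array 1, 2 or 3 labelled spleen (1.12, 1.24 and 1.37) or array 1 or 3 labelled tumor (1.34 and 0.64).

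In Alk cells Ppp2r2b was higher in labelled tumor arrays by 1.58 (limma adjusted p = 0.0111), where 53.2% of genes passed. The Ppp2r2b difference between Alk and LacZ also varied with the label, by 2.31 ± 0.71 (adjusted p = 0.0221, where 25.4% passed). Quantile normalization and loess took the first to 0.30 and 0.09 and the second to 0.24 and 0.12. The lowest value of any probe set was -1.88, -2.37 and -2.31 on the Alk labelled tumor arrays, against -4.51 to -3.33 on those of LacZ, and its part in the Ppp2r2b term was not tested. The second lost its call without LacZ array 2 labelled spleen (1.78, adjusted p = 0.11), LacZ array 1 labelled tumor (1.94, adjusted p = 0.0793) or Alk array 1 labelled tumor (2.21, adjusted p = 0.0641).

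The other genes of the pathway were counted in the same comparison of the labels. Of 14 regulators of PP2A, 10 were lower and 1 higher over the mean of the 6 transductions, with a median of -0.61, where 70.7% of all genes passed. That count, 11 of 14, is near the share of all genes. Cip2a, an inhibitor of PP2A, differed by -2.67, and Mastl, the kinase that switches on the PP2A inhibitors Arpp19 and Ensa in mitosis, by -2.02. Ppme1, which removes the methyl group from the catalytic subunit, differed by -1.24, and Lcmt1, which adds it, by -1.09. Ptpa, an activator of the catalytic subunit, differed by -1.05, Arpp19 by -0.77 and Ensa by -0.46. Of the 15 cell cycle genes, 15 were lower in labelled tumor arrays. Their part in the regulators' values was not tested.

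Of 9 further PP2A subunits, 5 were lower and 2 higher (median -0.39), again where 70.7% of all genes passed. The B56 subunits Ppp2r5d (-0.96) and Ppp2r5e (-0.41) and the striatins Strn (-0.40) and Strn4 (-0.39) were lower, as was Ppp2r3c (-0.64), and Ppp2r5a (0.54) and Ppp2r5b (0.29) were higher. Of 8 catalytic subunits of related phosphatases, 5 were lower, among them Ppp6c (-0.82) and Ppp4c (-0.56), and the calcineurin subunit Ppp3ca was higher (0.40). Both counts, 7 of 9 and 6 of 8, are near the share of all genes.

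With the Ppp2r2d hairpin few of these genes passed. Of the 14 regulators 1 passed in each labelled spleen comparison, where 12.8% of all genes did against LacZ and 4.19% against the 4 other hairpins. This was Bod1, an inhibitor of PP2A with B56 subunits, which was higher by 1.03 than in LacZ (limma adjusted p = 0.0169) and by 0.77 than with the 4 other hairpins (adjusted p = 0.0465). In labelled tumor arrays Cip2a (1.06) and Fam122a (0.55), another inhibitor, were higher than with the 4 other hairpins (adjusted p = 0.0383 and 0.0395). These are 2 of the 14 regulators, where 30.4% of all genes passed, and 0 of the 14 passed against LacZ there.

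Within groups, the likeness of Ppp2r2d to the other well-measured subunits depended on 1 array. After group means were taken out, Ppp2r2d correlated over all 36 arrays with Ppp2r5c (r = 0.85), Ppp2r2a (0.65), Ppp2ca (0.58), Ppp2cb (0.52), Ppp2r1b (0.33) and Ppp2r1a (0.31). Without Ptpn2 array 1 labelled tumor, it correlated over 35 arrays with Ppp2r2a (r = 0.86), Ppp2r1a (0.84), Ppp2ca (0.84), Ppp2cb (0.83), Ppp2r1b (0.73) and Ppp2r5c (0.70). Ppp2ca correlated with Ppp2r1a at 0.87 over 36 arrays and 0.92 over 35. These arrays share their centring, which is not stated, and its part in these values was not tested. The values describe array-to-array variation and carry no test.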

How the data were processed

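RNA of 36 samples was read on single-colour Affymetrix 3′ arrays, 3 in each of 12 groups named by the labels. The authors' deposited values are log2 signals, and RMA is named per the submitters' processing notes; its version and the centring of arrays were not given in the sources used here. Of 45101 probe sets, 64 were controls, 34945 had 1 gene symbol, 932 several and 9160 none in the platform annotation. A gene was represented by its probe set with the highest mean.

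Differences were fitted with limma 3.58.1 (lmFit and eBayes) in R 4.3.3, with data.table, version 1.17.8, for input, 1 coefficient per group over all 36 arrays (24 residual and 6.75 prior degrees of freedom). Tests are two-sided, with Benjamini-Hochberg adjustment over 18193 genes, or 45037 probe sets where stated. A gene passed at an adjusted p under 0.05. Intervals are 95% intervals of the fit. The number of arrays limits the precision. Levels of different genes come from different probes and are not compared as amounts. The procedure was tested on simulated data with noise drawn independently for each gene and array. Variation shared by the genes of an array was not simulated.

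Named genes are the 10 members, members of 3 related lists that passed, and the 5 genes most correlated with Ppp2r2d over arrays and over group means. The members and lists were chosen with earlier results of these data known. Alternatives were averaging a gene's probe sets, a filter asking for values over the 40th percentile in 3 or more arrays, quantile normalization, cyclic loess, fits of only the groups compared, weighting arrays by quality, a replicate block, the Gapdh 3′ to 5′ difference as a covariate, and leaving out arrays. All probe sets of Ppp2r2d were planned, while the further probe sets of the remaining members were added after seeing the data.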

Additional observations from a re-analysis of the deposited data

Results flagged for a closer look

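The effect of the Ppp2r2d hairpin on Ppp2r3a differed between the labels. The limma interaction term, labelled tumor minus labelled spleen, was -2.92 against LacZ (adjusted p = 0.0172) and -3.05 against the 4 other hairpins (adjusted p = 0.000426), over 3 arrays in each group. In labelled spleen arrays 3 of 3 Ppp2r2d arrays lay above every LacZ array, and in labelled tumor arrays 3 of 3 lay below. On 1444612_at, the dimmest of its 3 probe sets, the terms were -0.63 (adjusted p = 0.824) and -1.43 (adjusted p = 0.163), and the mean of all sets gave -2.24 against LacZ (adjusted p = 0.0899). Both terms rest on the Ppp2r2d arrays and are not independent. The term against LacZ lost its call in 4 of 12 fits without single arrays. That against the 4 hairpins includes labelled tumor arrays whose floor lay above the Ppp2r2d readings of Ppp2r3a.

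The effect of the Alk hairpin on Ppp2r2b also differed between the labels, by 2.31 against LacZ (limma adjusted p = 0.0221). Ppp2r2b lies near the floor of the arrays, and the term was 0.24 with quantile normalization (adjusted p = 0.751).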

How the results depend on the processing

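The Ppp2r2d reduction in labelled spleen arrays kept its sign in the 12 other settings for each comparison. Against LacZ it was -1.37 with an adjusted p of 0.0575 when only the arrays of the groups compared were fitted, and leaving out single arrays gave -1.71 to -1.12. Against the 4 other hairpins the latter gave -1.28 to -0.99. In labelled tumor arrays the Ppp2r2d difference from LacZ ran from -0.50 to -0.11 over the 12 other settings. Leaving out single arrays gave -0.26 to 0.012, the last without LacZ array 3. Array weights took the label terms of Ppp2r2d past the threshold, at 1.29 and 0.88. The count of members called against LacZ was 1 in labelled spleen arrays when only the groups compared were fitted and 1 to 2 without single arrays. In labelled tumor arrays it was 0 with the mean of all probe sets, quantile normalization or only the groups compared, 4 with array weights and 0 to 1 without single arrays. Between the labels, over the 6 transductions, signs turned as follows. Ppp2r5c was 0.066 with the mean of all probe sets, 0.082 with quantile normalization, 0.073 with loess, 0.16 with the Gapdh covariate, and 0.39, 0.42, 0.35 and 0.66 on 1434205_at, 1434206_s_at, 1425726_x_at and 1425725_s_at. Ppp2cb was 0.35 with quantile normalization and 0.28 with loess, Ppp2r2b -0.015 with loess, and Ppp2r2d 0.071 with the Gapdh covariate. By probe set, Ppp2r2a was -0.067 on 1429715_at, Ppp2r2c 0.054 on 1443804_at and 0.24 on 1438054_x_at, and Ppp2ca -0.42 on 1417367_at. The cause of these changes was not tested.

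The replicate numbers gave no pairing: over 18 same-numbered pairs the residual correlations lay between -0.24 and 0.24, and 4 exceeded 0.1. With the replicate block, Ppp2r2d differed from LacZ in labelled spleen arrays by -1.37, and 2 of the results changed their side of the threshold. These were Ppp2r2b between the labels in Ptpn2 cells (1.24, adjusted p = 0.0533) and Ppp2r2c between the labels over the 6 transductions (-0.41, adjusted p = 0.0398). The array number, 3 in a group, limits all of these values, and Ppp2r2b, Ppp2r2c and Ppp2r3a lie low on the arrays' scale.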
